A study of Mus musculus with 15 samples.

Results

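Hedgehog signalling was followed through 9 genes in tissue sections of mouse embryos: the ligand Shh, the receptor Ptch1, the transducer Smo, the transcription factors Gli1, Gli2 and Gli3, the membrane antagonist Hhip, the transcription factor Foxa2 and the secreted ligand-release factor Scube2. They were chosen by name from 30534 gene columns, and their levels were compared between libraries and by distance on the pixel grid from pixels with a Shh count. In this assay, DBiT-seq, DNA barcodes reach a section through microfluidic channels laid in crossed sets, and every crossing point is read as a pixel by its pair of barcodes. A pixel can hold several cells or parts of cells, so fewer cells of a type and less RNA per cell cannot be told apart.

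The 11 transcript libraries came from tissue labelled only as embryo, at embryonic day 10 (E10), 11 (E11) or 12 (E12). There were 3 libraries at E10 with 50 µm pixels, 1 at E10 with 25 µm, 2 at E10 with 10 µm, 2 at E11 with 25 µm, 2 at E11 with 10 µm and 1 at E12 with 50 µm. No treatment or altered gene is named in the labels for any group, and strain, sex and the part of the embryo cut are not given in the sources used here. Nothing states that libraries of a group came from separate embryos. A p-value for levels thus measures only the spread between these sections, which may be technical. The titles of both E11 10 µm libraries carry the letters FL, which the labels do not explain. Stages share the 10, 25 and 50 µm widths only in part, 2 groups have 1 library, and the region cut cannot be told apart from stage or width. Tissue pixels numbered 829 to 2271 per library and held 1563489 to 11998765 counts in all, with the lowest total in E10 25 µm. Levels are given as CPM, the counts of a gene per 1000000 counts in the tissue pixels of its library. They were not divided by gene length, so levels of different genes are not compared.

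In the mouse embryo, Shh is made by the notochord, the floor plate of the neural tube, gut epithelium and the posterior limb bud. The ligand binds Ptch1, which then stops inhibiting Smo. Active Smo turns the Gli proteins from repressors toward activators, Gli3 being known mainly as a repressor and Gli1 as an activator that is itself a target. Ptch1 and Hhip are targets that bind the ligand and limit its spread, and Foxa2 is a floor plate and endoderm factor that is both a Hedgehog target and an activator of Shh. Boc, Cdon and Gas1 are co-receptors, known to be lowered where signalling is strong.

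The ligand was the most unevenly detected of the genes in the opening list apart from Scube2 and Foxa2. Shh (chromosome 5, 28456815 to 28467256, minus strand, GENCODE M21 on GRCm38) was at 9.52, 2.98 and 17.8 CPM in E10 50 µm replicates 1 to 3, at 7.68 CPM in E10 25 µm, and at 13.1 and 0.755 CPM in E10 10 µm. It was at 25.9 and 28.5 CPM in E11 25 µm, at 3.11 and 1.82 CPM in E11 10 µm and at 3.08 CPM in E12 50 µm. Both E11 25 µm libraries lay above every other library, while the replicates of E10 50 µm and of E10 10 µm were themselves far apart. A Shh count was found in 595 of 17046 tissue pixels. The share of pixels with a count ran from 0.132% in E10 10 µm replicate 2 (95% Clopper-Pearson interval 0.0273% to 0.386%) to 16.4% in E10 50 µm replicate 3 (14.0% to 19.1%). These intervals cover counting error only. Of the other ligands of the family, Ihh had 22 counts and Dhh 67 counts over all libraries.

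Shh-positive pixels often had a Shh-positive neighbour. In the 8 libraries with at least 10 of them, 35.3% (E12 50 µm) to 81.2% (E10 50 µm replicate 3) had another Shh-positive pixel among the surrounding pixels. Of tissue pixels without a Shh count, 3.19% (E10 25 µm) to 50.6% (E10 50 µm replicate 3) had one, fewer than among the positive pixels in each of these 8 libraries. Most rested on a single molecule or read: 432 of the 579 positive pixels in those libraries had 1 Shh count, and the highest count in a pixel was 10, in E11 25 µm replicate 1. Shh-positive pixels were also deeper. Their median total count was above that of pixels 3 or more steps away in 10 of 11 libraries, by 1.1 to 2.71 times, and below it in E11 10 µm replicate 2, at 0.563 times.

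The receptor Ptch1 (chromosome 13, 63508328 to 63573598) and the transducer Smo (chromosome 6, 29735503 to 29761365) varied less between libraries. Ptch1 ranged from 35.7 CPM in E11 10 µm replicate 2 to 149 CPM in E10 50 µm replicate 3, with a median of 85.4 CPM. Smo ranged from 51.8 to 102 CPM around a median of 74.6 CPM, and both ends of its range were E11 10 µm libraries. Gli3 (chromosome 13, 15463235 to 15730026) lay between 39.0 and 204 CPM, Gli1 (chromosome 10, 127329882 to 127341974) between 9.34 and 34.2 CPM, and Gli2 (chromosome 1, 118834132 to 119053619) between 8.02 and 24.3 CPM. For these 5 genes no group of 2 or 3 libraries lay wholly above or below all others, and none passed edgeR's test in any of the 4 comparisons of levels given further on. The lowest Ptch1, Gli2, Gli3 and Smo levels were all in E11 10 µm replicate 2. Gli1 and the overlapping Arhgap9 (163 counts) lie on opposite strands. Their counts could share reads, since the use of strand in counting is not given in the sources used here. Smo and an overlapping pseudogene (Gm13717, 318 counts) lie on the same strand, as do Ptch1 and A930032L01Rik (56 counts). Counts of these pairs could share reads whether or not strand was used. The antisense gene over Shh, 9530036O11Rik, had 1 count in all.

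Hhip, Foxa2 and Scube2 also differed widely between sections. Hhip (chromosome 8, 79965851 to 80058006) was at 4.85, 4.41 and 8.84 CPM in E10 50 µm, 1.92 CPM in E10 25 µm, 6.0 and 2.08 CPM in E10 10 µm, 5.92 and 10.0 CPM in E11 25 µm, 3.11 and 2.55 CPM in E11 10 µm and 17.4 CPM in E12 50 µm. The E12 library was the highest of the 11. Foxa2 (chromosome 2, 148042877 to 148046969) was at 3.0, 0.596 and 15.9 CPM in E10 50 µm, 13.2 and 15.5 CPM in E11 25 µm, 2.72 and 5.47 CPM in E11 10 µm and 4.46 CPM in E12 50 µm. E10 10 µm replicate 1 had 1 Foxa2 count, and E10 25 µm and E10 10 µm replicate 2 had no Foxa2 column and were taken as 0. Within E10 50 µm, the library with the least Foxa2 (replicate 2) also had the least Shh, and the one with the most had the most.

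**Figure D1:**
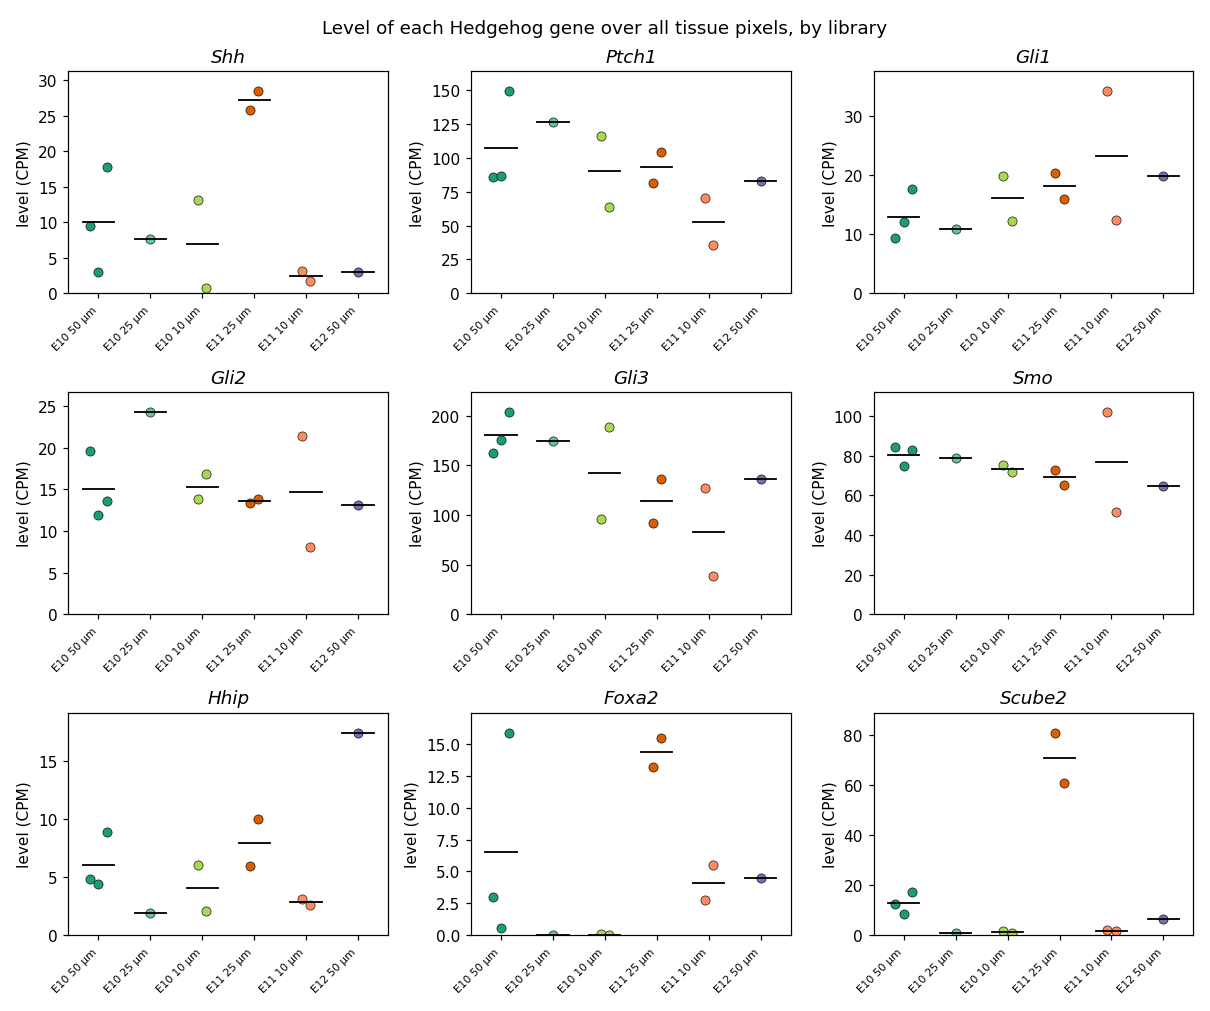
Level in CPM (vertical axes, linear, from 0) of each of the 9 genes over all tissue pixels, with 1 point per library, grouped by stage and pixel width; black lines are group means. Both E11 25 µm libraries are the highest for Shh (25.9 and 28.5 CPM) and for Scube2 (80.9 and 60.7 CPM), and E12 50 µm is the highest for Hhip (17.4 CPM).

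Scube2 (chromosome 7, 109798676 to 109865679), whose protein helps release the lipid-bearing ligand from the cell that makes it, had the widest range. It was at 80.9 and 60.7 CPM in E11 25 µm, 12.5, 8.34 and 17.3 CPM in E10 50 µm, and 6.31 CPM in E12 50 µm. In the other 5 libraries it was under 2 CPM: 0.640 in E10 25 µm, 1.75 and 0.755 in E10 10 µm, and 1.95 and 1.46 in E11 10 µm. The E11 25 µm libraries thus stood apart from all the others, and every 10 µm library was low.

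Levels were compared with edgeR's quasi-likelihood test across 18233 genes, with p-values adjusted by Benjamini-Hochberg and 0.05 as the threshold. For E11 against E10, averaging the log2 changes at 10 µm and at 25 µm, 1 of the 9 genes passed, against 3.6% of all genes tested: Scube2 was higher at E11 (log2 fold change 3.64, SE 0.57, adjusted p = 0.00602). Foxa2 did not pass in edgeR (adjusted p = 0.0623) and did in DESeq2 (adjusted p = 0.000338), with 1 count in the 3 E10 libraries at these widths. The Scube2 mean joined unequal changes. At 25 µm, the 876 Scube2 counts of the 2 E11 libraries stood against 1 count at E10, a ratio of 107 with a 95% counting interval of 19.2 to 4250 (adjusted p = 0.00408 in edgeR, against 0.455% of all genes called). At 10 µm the counts were 9 at E11 and 25 at E10, a ratio of 1.17 (0.481 to 2.6) that did not pass (adjusted p = 0.853, against 3.33% of all genes). For E12 against E10 at 50 µm, 0 of the 9 genes passed in edgeR, against 2.14% of all genes. At an unadjusted p under 0.05 there was 1, Hhip, and DESeq2 also called 0.

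Scube2 also differed between pixel widths at 1 stage, where width cannot be told apart from section. For 10 µm against 50 µm at E10, 1 of 9 genes passed, against 0.11% of all genes tested: Scube2 was 9.12-fold lower at 10 µm (log2 fold change -3.19, SE 0.44, adjusted p = 0.0339 in edgeR). This call was lost when any of E10 10 µm replicate 2, E10 50 µm replicate 1, E10 50 µm replicate 3 or either E11 25 µm library was left out (adjusted p 0.0875 to 0.281). For 10 µm against 25 µm at E11, 1 of 9 passed, against 2.07% of all genes: Scube2 was 44.9-fold lower at 10 µm (log2 fold change -5.49, SE 0.53, adjusted p = 0.000391 in edgeR). Shh had a log2 fold change of -3.58 (SE 1.19) in that comparison and did not pass in edgeR (adjusted p = 0.243), but it passed in DESeq2 (adjusted p = 0.00775) and in an edgeR fit of the 4 E11 libraries alone (adjusted p = 0.00362).

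The distance comparisons ask which genes differ around the source of the ligand. Counts were summed in each library over Shh-positive pixels (distance 0), over pixels 1 or 2 grid steps from the nearest of them, diagonals included, and over pixels 3 or more steps away. A step is a different length in tissue at each pixel width. The 3 libraries with fewer than 10 Shh-positive pixels (E10 10 µm replicate 2 and both E11 10 µm libraries) had no sum at distance 0, which left 8 libraries there and 11 at the other distances. Of the 8, E10 25 µm had only 11 pixels and 14249 counts at distance 0, so 1 count there is 70.2 CPM. Its direction for a gene can rest on 0 or 1 count. Directions by library are those of CPM, without the TMM factors that scale the total of each sum in the fit. For E10 25 µm these factors were 1.936 at distance 0 and 0.974 at 3 or more steps, so its CPM ratio is above the ratio on the fitted scale. Shh itself is set by this grouping and was not tested here. With the library as a block, differences in level between sections are removed. A p-value by distance is set against the scatter left among the sums, of which up to 4 share a section. In edgeR, with the library as a block, 4 of the other 8 genes passed at distance 0, against 1.77% of the 12484 genes tested: Foxa2, Hhip and Ptch1 were higher than at 3 or more steps (0.753% of all genes were), and Gli3 was lower (1.02% of all genes were). The median log2 fold change of the 8 genes was 0.24, against -0.05 over all genes tested.

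Foxa2 showed the largest difference. At distance 0 it was at 87.1 and 80.4 CPM in E11 25 µm, 26.8 CPM in E12 50 µm, and 8.74, 0 and 28.0 CPM in E10 50 µm, while E10 10 µm replicate 1 and E10 25 µm had none. At 3 or more steps it was at 6.27 and 4.43, 3.78, and 1.63, 0.206 and 6.15 CPM in the same 6 sections. Foxa2 was higher at distance 0 in 5 libraries, lower in E10 50 µm replicate 2 and at 0 in both places in the other 2, with 166 counts behind the values at distance 0. The log2 fold change was 3.05 (SE 0.31, 8.28-fold, adjusted p = 6.23e-12 in edgeR). In the E10 libraries alone, a comparison chosen after the data were seen, it was 2.25 (adjusted p = 0.000313).

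Hhip, which sequesters the ligand at the membrane, was at 0 to 44.6 CPM at distance 0 (median 8.94) and at 1.41 to 11.1 CPM at 3 or more steps (median 3.66). It was higher in 7 of 8 libraries, the exception being E10 25 µm with no Hhip count in its Shh-positive pixels. Its log2 fold change was 1.35 (SE 0.29, 2.55-fold, adjusted p = 0.00391 in edgeR) on 61 counts. Ptch1 was at 112 to 211 CPM (median 157) at distance 0 and at 54.4 to 121 CPM (median 70.0) at 3 or more steps. By CPM it was higher in 8 of 8 libraries, and its fitted log2 fold change was 0.83 (SE 0.18, 1.78-fold, adjusted p = 0.0128 in edgeR). The 211 CPM rested on 3 counts, in E10 25 µm. In the E10 libraries alone, neither Hhip (log2 fold change 1.06, adjusted p = 0.145) nor Ptch1 (0.71, adjusted p = 0.142) passed in edgeR. Ptch1 also lost the call without E11 25 µm replicate 2 (adjusted p = 0.0691). With at least 2 counts required of a Shh-positive pixel, neither Hhip (1.56, adjusted p = 0.101) nor Ptch1 (0.72, adjusted p = 0.385) passed in edgeR. Pixels with 1 Shh count were then placed among the other distances.

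Gli3 went the other way. It was at 53.6 to 139 CPM (median 86.6) in Shh-positive pixels and at 87.0 to 208 CPM (median 159) at 3 or more steps, and it was lower in 8 of 8 libraries. In E10 25 µm it had 1 count in Shh-positive pixels. Its log2 fold change was -0.63 (SE 0.12, 1.54-fold lower, adjusted p = 0.000475 in edgeR). Gli2 had values of the same sign in 7 of 8 libraries (log2 fold change -0.46, SE 0.23) and did not pass (adjusted p = 0.404). Gli1, a commonly used readout of the pathway, had a log2 fold change of 0.34 (SE 0.21) and was higher in 6 of 8 libraries, which did not pass either (adjusted p = 0.58). Smo (log2 fold change 0.14, SE 0.11) and Scube2 (-0.03, SE 0.34) did not pass.

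**Figure D2:**
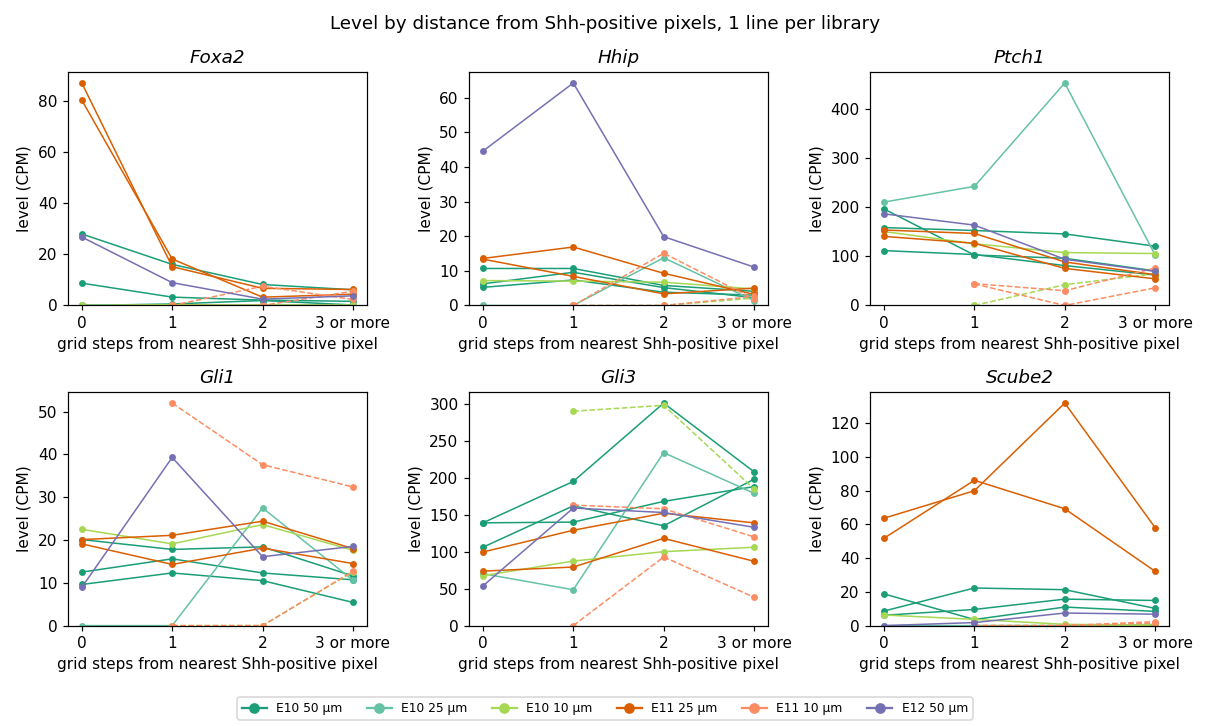
Level in CPM (vertical axes, linear, from 0) of 6 genes by grid distance from the nearest Shh-positive pixel, with 1 line per library; colours give stage and pixel width, and dashed lines are the 3 libraries with fewer than 10 Shh-positive pixels. Foxa2 peaks at distance 0 in the E11 25 µm libraries (87.1 and 80.4 CPM), Hhip in E12 50 µm is higher at distance 1 (64.3 CPM) than at 0 (44.6 CPM), and Gli3 is lower at distance 0 than at 3 or more steps in each of the 8 solid lines.

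One step away, 3 of 8 genes passed in edgeR, against 0.705% of all genes tested. All 3 were higher, as were 0.272% of all genes, and 0.433% were lower. Hhip was higher than at 3 or more steps by a log2 fold change of 1.56 (SE 0.23, 2.95-fold, adjusted p = 6.24e-06), Foxa2 by 1.39 (SE 0.30, adjusted p = 0.00722) and Ptch1 by 0.64 (SE 0.16, adjusted p = 0.0496). Hhip at distance 1 rested on 199 counts and was higher in 7 of 11 libraries. The other 4 libraries, with 0 Hhip counts at distance 1, were E10 25 µm, E10 10 µm replicate 2 and both E11 10 µm libraries. Hhip reached 64.3 CPM at distance 1 in E12 50 µm and 16.9 CPM in E11 25 µm replicate 2, each above the value at distance 0 in the same library (44.6 and 13.6 CPM). At distance 1 Foxa2 rested on 154 counts and was higher in 7 of 11 libraries and lower in 2. Its median over libraries was 0.6 CPM at distance 1, below the 2.35 CPM at 3 or more steps. Foxa2 lost its call at distance 1 in 4 of 21 alternatives: without E11 25 µm replicate 2 (adjusted p = 0.0705), in the E10 libraries alone (0.208), with the far pixels at 6 or more steps (0.1) and in DESeq2 (0.0505). The Ptch1 call at distance 1 held in 8 of 21 alternative settings. Over all 21, whether called or not, the Ptch1 log2 fold change ran from 0.47 to 1.21. Gli3, with a log2 fold change of -0.21 (SE 0.09), did not pass at distance 1 (adjusted p = 0.523).

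Requiring more Shh counts of the source moved calls both ways, with those of Hhip and Ptch1 at distance 0 lost as given above. Pixels with 1 Shh count were kept and fell at distance 1, 2 or 3 or more, so the far pixels could include some. With Shh-positive pixels required to have at least 2 counts, which left 5 libraries with 20 to 38 pixels each at distance 0, Gli3 was lower by a log2 fold change of -0.93 (adjusted p = 0.000115 in edgeR) and Scube2 by -1.20 (adjusted p = 0.0438) at distance 1. With 1 count as the limit, Scube2 had a value of 0.49 there (adjusted p = 0.666). At distance 0 under that definition, Scube2 had a log2 fold change of -2.83 (adjusted p = 0.00683) and Foxa2 one of 3.64.

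At distance 2, 0 of 8 genes passed in edgeR, as did 0.0% of all genes tested. At an unadjusted p under 0.05 there were 3 of the 8 genes and 530 genes in all, and DESeq2 called 0. Hhip had a log2 fold change of 0.76 (SE 0.25) there, Scube2 one of 0.71 (SE 0.26), Ptch1 one of 0.30 (SE 0.16) and Foxa2 one of 0.22 (SE 0.34).

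**Figure D3:**
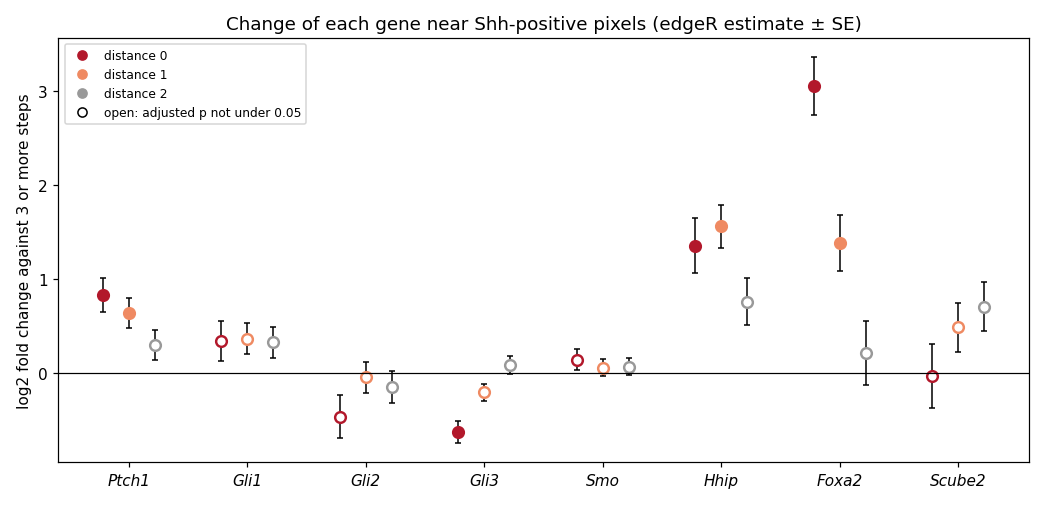
Fitted log2 fold change (vertical axis) of the 8 genes other than Shh at 0, 1 and 2 grid steps against 3 or more steps, with bars of ±1 SE; filled points have an adjusted p under 0.05 in edgeR. Foxa2 is at 3.05, 1.39 and 0.22, Hhip is about equal at 0 and 1 (1.35 and 1.56), and the only filled point below 0 is Gli3 at distance 0 (-0.63).

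The change with distance was compared between the E10 and E11 libraries by an interaction term in edgeR. At distance 0 the E11 sums came only from 25 µm libraries, and most E10 sums from libraries of other widths. At the other distances the widths also differed in part between the stages. In this term, stage thus cannot be told apart from pixel width, from the length of a step in tissue or from section. At distances 0, 1 and 2, 0 of the 8 genes passed, against 2.22%, 2.42% and 0.524% of all genes tested. At an unadjusted p under 0.05 there was 1 at distance 0 and 0 at the others. The single gene was Foxa2, whose log2 fold change was larger at E11 by 1.61 (SE 0.65, adjusted p = 0.249). Of the 17 other pathway genes tested, 1 passed at distance 0: the co-receptor Cdon, by 1.48 (SE 0.36, adjusted p = 0.00592). Of the floor plate and notochord markers, Spon1 and Ntn1 passed at distance 0 with a larger change at E11, by 2.28 and 2.18 on the log2 scale.

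A finer profile set each gene's level at each grid distance over its level in all tissue pixels of the library. It was taken as the median over the 6 libraries with at least 20 pixels at every distance from 0 to 4 (E10 50 µm replicates 1 to 3, E10 10 µm replicate 1 and both E11 25 µm). Foxa2 was at 2.34 times its library level at distance 0 (0 to 6.6 over libraries), 1.12 at distance 1, 0.513 at distance 2 and 0.39 at distance 3. These medians include E10 50 µm replicate 2, with 5 Foxa2 counts in all, and E10 10 µm replicate 1, with 1. That 1 count gave the highest value at distance 1, 4.03. Hhip was at 1.29, 1.47, 0.862 and 0.717 times, and Ptch1 at 1.4, 1.2, 0.943 and 0.856 times. The medians of all 3 were above 1 at distances 0 and 1 and below 1 from 2 steps on. Gli3 was at 0.716 times at distance 0 (0.602 to 0.853), 0.913 at distance 1 and 1.08 to 1.1 at distances 2 to 4. Smo was between 0.891 and 1.05 times throughout.

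**Figure D4:**
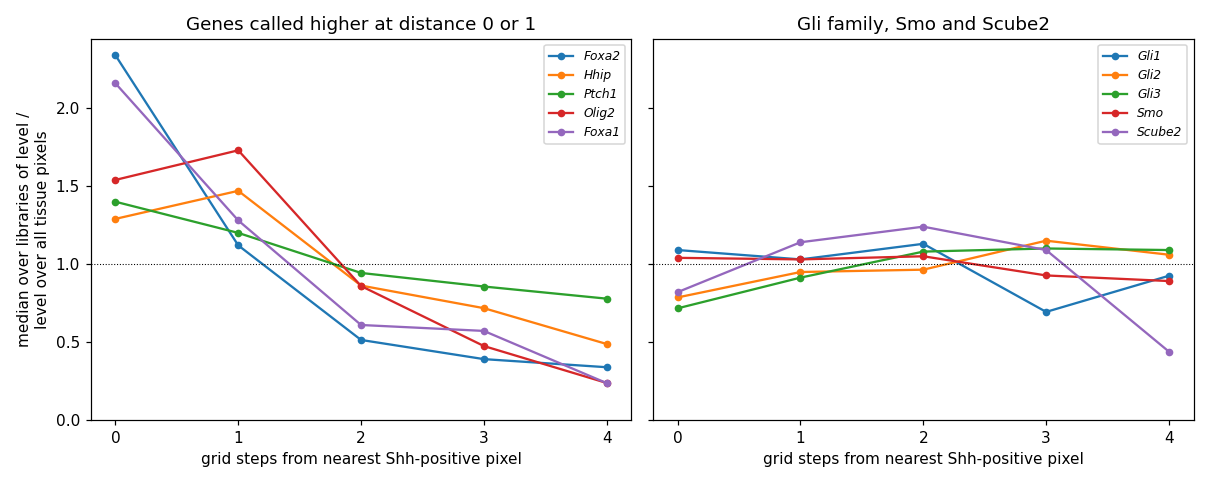
Median over the same 6 libraries (5 for Foxa1, with no count in 1 of them) of the level at each grid distance from Shh-positive pixels divided by the level over all tissue pixels (vertical axes, linear, from 0; the dotted line is 1), for Foxa2, Hhip, Ptch1, Olig2 and Foxa1 (left) and for the Gli genes, Smo and Scube2 (right). Foxa2 goes from 2.34 at distance 0 to 0.39 at distance 3, and Gli3 from 0.716 at distance 0 to 1.08 at distance 2. Foxa2 had only 5 counts in E10 50 µm replicate 2 and 1 in E10 10 µm replicate 1.

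Of the 19 other pathway genes on the list, 17 could be tested by distance. None was higher at distance 0 or 1, and 2 were lower at each, all of them co-receptors. Gas1 was lower at distance 0 in 8 of 8 libraries, at 0 to 76.9 CPM against 66.6 to 164 CPM (log2 fold change -0.97, SE 0.13, adjusted p = 2.8e-07 in edgeR), and at distance 1 (-0.66, SE 0.10, adjusted p = 3.09e-05). Boc was lower at distance 0 in 8 of 8 libraries (log2 fold change -0.83, SE 0.20, adjusted p = 0.0128 in edgeR), and at distance 1 its value was -0.08 (adjusted p = 0.974). Cdon was lower at distance 1 in 11 of 11 libraries (log2 fold change -0.68, SE 0.14, adjusted p = 0.00253 in edgeR). At distance 0 it was at -0.47 (SE 0.17, adjusted p = 0.176), and both E11 25 µm libraries had more Cdon in Shh-positive pixels than far from them (43.6 and 50.4 against 20.9 and 32.2 CPM). The negative regulators Sufu (-0.02) and Kif7 (-0.12), the ligand exporter Disp1 (0.03), the acyltransferase Hhat (0.33) and the Scube2 relatives Scube1 (0.08) and Scube3 (0.07) did not pass at distance 0. Neither did Gpr161, Lrp2, Spop, Evc, Evc2, Gpc3 and Tulp3, with log2 fold changes from -0.16 (Tulp3) to 0.64 (Lrp2). The median of the 17 was -0.03 at distance 0, against -0.05 over all genes.

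Markers of the tissues that make or answer the ligand moved with distance. Of the floor plate and notochord list, 4 of 10 genes could be tested, and 3 were higher at distance 0: Foxa1 (log2 fold change 2.86, SE 0.37), Spon1 (2.15, SE 0.29) and Ntn1 (1.88, SE 0.28), all with edgeR. The notochord marker Noto was at 0 in 8 of 11 libraries. The summed level of this list was 66.6 to 1160 CPM at distance 0 and 58.7 to 112 CPM at 3 or more steps, and was higher in 8 of 8 libraries. Of the ventral neural targets, 5 of 7 could be tested. Nkx2-1 (2.48, SE 0.31) and Olig2 (1.62, SE 0.30) were higher at distance 0, and Nkx2-1 (1.69), Olig2 (1.69) and Nkx6-2 (1.01) at distance 1. Olig2, a motor neuron progenitor factor, was higher at distance 1 in 9 of 11 libraries. Of the dorsal neural list, 6 of 9 genes could be tested, and only Msx1 passed in edgeR. Msx1 was lower at distance 0 (log2 fold change -0.94, SE 0.13) and at distance 1 (-0.69, SE 0.10), in 8 of 8 and 11 of 11 libraries. Lmx1a had the only positive value of the 6 at distance 0 (0.96, SE 0.35) and did not pass. None of the 5 mesoderm targets tested passed at either distance. Foxf1 and Foxf2 had log2 fold changes of 0.64 and 0.76 at distance 0.

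Markers of other tissues also moved with distance. Krt19 (log2 fold change 1.98, SE 0.37) and Krt8 (1.33, SE 0.33) of the epithelium and endoderm list were higher at distance 0 in edgeR, each in 5 of 8 libraries. For Krt19 the level at distance 0 was 131 CPM in E11 25 µm replicate 1 and at most 25.9 CPM in the other libraries. The summed level of that list was higher at distance 0 in 6 of 8 libraries. Of the red cell list, 7 of 9 genes were lower at distance 0 and 3 at distance 1, and its summed level was lower at distance 0 in 8 of 8 libraries (8430 to 40400 CPM against 20900 to 95500 CPM). Of the liver list, Afp was lower at distance 0 (-1.67, SE 0.40), and Afp and Apoa2 at distance 1 (-1.51 and -1.45). None of the 7 neuron or 7 heart muscle genes passed at distance 0. The part of these markers, and of the greater depth of Shh-positive pixels, in the results for the Hedgehog genes was not tested. Among pixels at or above the median total of their library, the log2 fold changes at distance 0 were 3.20 for Foxa2, 1.46 for Hhip, 0.84 for Ptch1 and -0.76 for Gli3, and all 4 passed in edgeR. Pixels below that median were dropped before distances were measured, and E10 25 µm, with 8 Shh-positive pixels left, had no sum at distance 0. Shh-positive pixels still had the higher median total in each library with such a sum (9285 against 5884.5 in E10 10 µm replicate 1), except E11 25 µm replicate 1 (3760 against 3785).

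The genes whose pattern was most like that of Shh were sought outside the opening list of Hedgehog genes. They were taken as those called higher at distance 0 in edgeR, higher in 8 of 8 libraries and with the largest log2 fold change. Ptch1 (0.83) also met this rule but, being on the opening list, was left out of the count and the ranking. Of 15 genes outside that list that met the rule, the first 10 were Spon1 (2.15), Tox2 (1.59), Nrcam (1.44), Pcsk1n (1.38), Slit2 (1.14), Sorcs1 (1.08), Sox21 (0.91), Frmd4b (0.84), Fndc3b (0.68) and Id4 (0.53). Spon1 and Slit2 encode secreted axon guidance proteins known from the floor plate, and Nrcam a neural adhesion molecule. Slit2 was at 70.2 to 617 CPM at distance 0 and at 68.6 to 179 CPM at 3 or more steps. A value of 70.2 CPM is that of 1 count in E10 25 µm. Of 39 genes outside the opening list that were called lower and were lower in 8 of 8 libraries, the first 5 were Upk3b (-2.03), Edn1 (-1.87), Postn (-1.31), Osr1 (-1.29) and Prrx1 (-1.27). Each of the 5 was at 0 CPM at distance 0 in at least 1 library. Prrx1 and Osr1 are transcription factors of mesenchyme, and Postn encodes a matrix protein. At distance 1, only Ckb (0.49) met the rule for a gene higher in 11 of 11 libraries.

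Pixel by pixel, the genes paired unequally. For each ordered pair, the CPM of a gene in pixels with a count of another was divided by its CPM in pixels with none, in libraries with at least 10 such pixels and 10 counts. In Shh-positive pixels Foxa2 was at 6.58 times (median of 5 libraries, all above 1), Ptch1 at 1.62 times (8 of 8 above 1) and Hhip at 1.41 times (7 of 7), and Gli3 was at 0.649 times (0 of 8 above 1). In pixels with a Ptch1 count, Gli1 was at 1.52 times (8 of 11 above 1) and Hhip at 1.92 times (8 of 8). In pixels with a Foxa2 count, Gli3 was at 0.687 times (0 of 6 above 1). In pixels with a Scube2 count, Shh was at 0.398 times its level elsewhere (2 of 7 above 1). Pixels with and without a count differ in depth, and no test was made on these ratios.

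**Figure D5:**
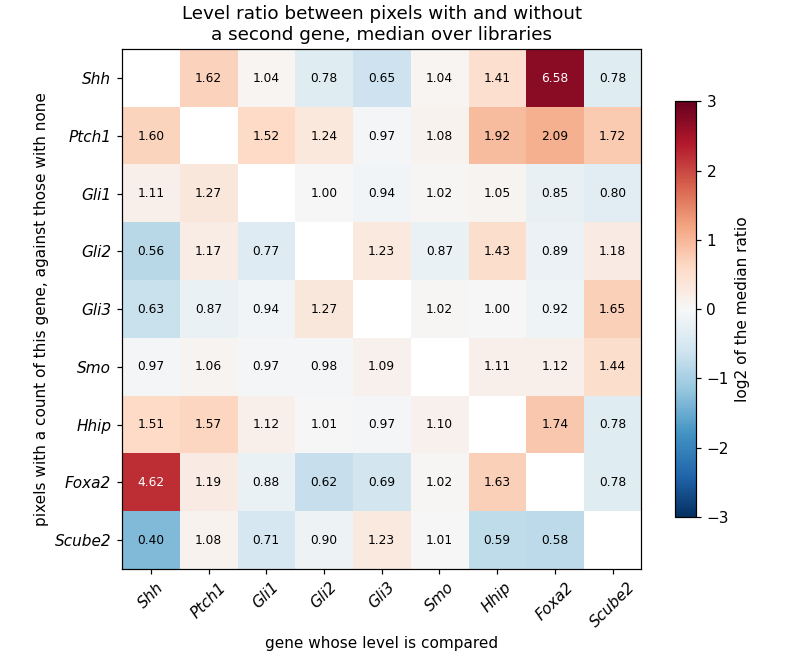
Ratio of the level of the gene named below in pixels with a count of the gene named at the left to its level in pixels without one, as the median over libraries; colour is the log2 of the ratio, with red above 1 and blue below. The highest ratios join Shh and Foxa2 (6.58 and 4.62), and the lowest is Shh in Scube2-positive pixels (0.398).

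Spatial clustering was described by Moran's I over the 4 nearest pixels, beside its percentile among the genes with a count in 1% or more of the library's tissue pixels. Scube2 had a median I of 0.205 over 6 libraries and reached 0.566, the highest of the 9 genes. Shh (median 0.158, 7 libraries), Gli3 (0.16, 11 libraries), Foxa2 (0.124, 5 libraries) and Ptch1 (0.106, 11 libraries) had median percentiles from 94.1 to 97.3. Gli1, Gli2 and Smo had medians of 0.0165, 0.0149 and 0.0248 at percentiles of 46.0, 47.9 and 55.5, close to those of the middle gene.

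Antibody tags were counted in 4 of the E10 sections, of which 3 had at least 10 Shh-positive pixels. No antibody on the panel of 22 is named for a Hedgehog protein. The share of the red cell tag (LY76) in Shh-positive pixels was 0.604 to 0.883 of its share at 3 or more steps in these 3 sections, and that of CD63 was 0.601 to 0.947. Notch1 was at 1.04 to 1.2 times and CD45 at 1.01 to 1.42 times, above 1 in each of the 3 sections. Ep-CAM was at 0.694 to 1.11 times and crossed 1.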

How the data were processed

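Per the labels' protocols, frozen sections were placed on glass slides, and Nextera XT libraries were read as pairs of 100 bases on a HiSeq instrument. The authors deposited counts per gene symbol (or antibody) and pixel, with no normalization; every value read was a whole number. The submitters' processing notes name CASAVA 1.8.2 and the build GRCh38, a human build although the symbols are those of mouse. The aligner, the annotation, whether strand was used, how duplicates were collapsed and which pixels were kept are not given in the sources used here. Gene positions are from GENCODE M21 (GRCm38) and entered no count.

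Tissue pixels had a total of at least 0.1 of the 95th percentile of their library. Counts were summed per library, or per library and distance (Chebyshev grid steps), leaving out sums over fewer than 10 pixels (20 in the profile by single steps). Sums were tested with edgeR 4.0.16 (R 4.3.3): TMM factors, default filter on low counts, robust quasi-likelihood fit, two-sided tests and Benjamini-Hochberg adjustment over all genes tested. Levels were fitted as 6 group means over 11 libraries (5 residual degrees of freedom, common biological coefficient of variation 31.8%); a group of 1 library was assumed to vary like the others. The distance fit had the library as a block (41 sums, 27 residual degrees of freedom, 11.6%). Alternatives were DESeq2 1.42.0, its size factors, no filter on low counts, a tissue limit of 0.2, other definitions of source and distance, and leaving out each library; the tests were checked on simulated data. After the data were seen, fits of the E10 libraries alone and without the 3 libraries with under 10 Shh-positive pixels, and the tests of E11 against E10 at each width and of stage by distance, were added. The genes and lists were chosen with earlier results of these data known. All 9 genes and the 19 pathway genes were to be named, as were up to 4 called genes of each other list and direction, and the genes with the largest called changes shared by all libraries, apart from predicted genes with Gm or Rik symbols. Some listed genes are not reported here. Antibody libraries were joined by barcode pair to the transcript library whose title shares their stem.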

Additional observations from a re-analysis of the deposited data

Results flagged for a closer look

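The E11 against E10 change of Scube2 was called different at 25 µm and at 10 µm, in a comparison that rests on 1 library, E10 25 µm, with 1 Scube2 count, assumed to vary like the other groups. The E11 against E10 log2 fold change was 6.96 (SE 0.89) at 25 µm and 0.31 (SE 0.61) at 10 µm. The test of the difference itself gave 6.65 on the log2 scale (SE 1.11, adjusted p = 0.0371 in edgeR), against 0.137% of all 18233 genes called. The 1 count, in a library of 1563489 counts, compares with 410 and 466 counts in the E11 25 µm libraries. E10 25 µm has no replicate, so stage and section cannot be told apart at 25 µm.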

How the results depend on the processing

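Of 1044 alternative values for 60 results on single genes, 959 kept their sign and their side of the threshold, 41 had the other sign while passing in neither setting, 27 lost the call, 16 gained one and 1 reversed. Scube2 at distance 0 had the other sign in 7 of 21 alternatives. The reversed value was Scube2 at distance 1, at -1.20 when Shh-positive pixels needed at least 2 counts. The number of the 9 Hedgehog genes called for E11 against E10 went from 1 to 2 with DESeq2 and with no filter on low counts, and was 1 to 2 when single libraries were left out (E10 25 µm could not be, being alone in its group). For 10 µm against 50 µm at E10 it went from 1 to 2 with DESeq2 and with no filter, and was 0 to 1 without single libraries. For 10 µm against 25 µm at E11 it went from 1 to 2 with DESeq2, with no filter and in a fit of the 4 E11 libraries alone, and was 1 to 2 without single libraries. At distance 0 it went from 4 to 2 in the E10 libraries alone, to 3 with at least 2 Shh counts (Foxa2, Gli3 and Scube2, of which 2 were among the 4), and was 3 to 4 without single libraries. At distance 1 it went from 3 to 1 with DESeq2, with the far pixels at 6 or more steps and in the E10 libraries alone, to 5 with at least 2 Shh counts, and was 1 to 3 without single libraries. At distance 2 it went from 0 to 1 with no filter. For E12 against E10 it was 0 in each setting run. The cause of these changes was not tested.

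Counts over all genes moved more. With edgeR, DESeq2 and no filter, they were 656, 1377 and 1988 for E11 against E10, 390, 521 and 1328 for E12 against E10, 20, 397 and 731 for 10 µm against 50 µm, and 378, 554 and 870 for 10 µm against 25 µm. They were 221, 147 and 781 at distance 0, 88, 31 and 315 at distance 1, and 0, 0 and 83 at distance 2. With at least 2 Shh counts they were 88, 82 and 11 at the 3 distances, in pixels at or above the median total 67, 25 and 0, with the far pixels at 6 or more steps 172, 103 and 14, by city-block distance 250, 102 and 9, and in the E10 libraries alone 122, 47 and 1. Without single libraries they ranged from 144 to 1465 for E11 against E10, 98 to 969 for E12 against E10, 0 to 164 for 10 µm against 50 µm, 33 to 463 for 10 µm against 25 µm, 108 to 263 at distance 0, 40 to 137 at distance 1 and 0 to 1 at distance 2.

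The E11 libraries of both widths share numbers in their titles, but same-numbered libraries did not deviate together (r = 0.0746), so the number was not taken as a pairing. A replicate block for it in a fit of the 4 E11 libraries called 2 of the 9 genes, Scube2 and Shh, and 234 genes in all. Depth limits the rarer genes: 432 of 579 Shh-positive pixels had 1 Shh count, and a pixel without a Shh count is one where none was detected at its depth.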
